A study of Homo sapiens with 8 samples.

Results

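The members of the miR-29 family examined were the mature miRNAs hsa-miR-29a-3p, hsa-miR-29b-3p, hsa-miR-29c-3p, hsa-miR-29a-5p, hsa-miR-29b-1-5p and hsa-miR-29c-5p. These 6 members were taken by name from the 2549 human miRNAs with probes on the array, because the family is known for its action on DNA methyltransferases and for holding back multiple myeloma (MM) cells. Their signals were compared between DMSO and the EZH2 inhibitor UNC1999 in the MM cell line INA-6, an established human plasma cell tumor line that depends on interleukin-6. EZH2 is the polycomb enzyme that places the repressive H3K27me3 mark, and UNC1999 is a small molecule that blocks it. The study asked whether miRNAs respond to this block. In the DMSO group, 4 arrays carried RNA of INA-6 cells that received the solvent DMSO, and in the UNC1999 group, 4 arrays carried RNA of INA-6 cells that received 1 μM of UNC1999, all for 120 hours with interleukin-6 in the medium, which was renewed once with the reagents. The sample titles give DMSO as the control, whereas the treatment protocol in the labels gives UNC2400, an inactive compound, and the samples were taken as DMSO controls. The labels call the 4 samples of a group biological replicates. All 8 arrays, of 1 colour, lay on 1 slide.

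The arrays detected 482, 369, 370 and 484 human miRNAs after DMSO in replicates 1 to 4, and 500, 498, 491 and 474 after UNC1999. DMSO replicates 2 and 3 had fewer detected miRNAs than the other 6 arrays, and the groups did not differ beyond this spread (exact permutation test, two-sided, p = 0.11). Values are given as scaled intensities, in which the background-subtracted intensity of a miRNA was divided by the 75th percentile of its array, taken over 346 miRNAs that every array detected, and brought back to the original range. A log2 fold change is the mean log2 scaled signal after UNC1999 minus that after DMSO, so that a negative value is lower after UNC1999. In RNA from whole cultures, fewer cells with a miRNA and less of it in each cell cannot be told apart.

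The miRNA profile was checked against markers of cell types. Of 6 miRNAs typical of blood cells, 4 were detected on all 8 arrays, with miR-142-3p the brightest, whereas miR-146a-5p was detected on no array and miR-155-5p on no DMSO array and 2 UNC1999 arrays. Their summed scaled intensity, with negative values set to 0, was 6464, 5342, 5069 and 6301 after DMSO in replicates 1 to 4 and 4555, 3663, 4204 and 3965 after UNC1999. Of 14 miRNAs typical of red cells, epithelium, liver, muscle, neurons and fibroblasts, 13 were detected on no array. The exception was miR-9-5p, a miRNA known from neurons, which was detected on all 8 arrays. The summed scaled intensity of these 14, with negative values again set to 0, was 137.3, 89.2, 107 and 139.5 after DMSO in replicates 1 to 4 and 82.6, 61.1, 71.2 and 67.6 after UNC1999. This sum was mostly miR-9-5p, with a mean scaled intensity of 99.7 for DMSO and 54.2 for UNC1999, beside signals not well above background. With this scaling both sums were higher on every DMSO array than on every UNC1999 array, and their part in the results below was not tested. Unscaled, the sum of the blood cell miRNAs was 5918, 3599, 2896 and 6797 after DMSO in replicates 1 to 4 and 6030, 5008, 5920 and 4093 after UNC1999, so that the groups overlapped. The unscaled sum of the other 14 overlapped too, from 60.1 to 150.5 after DMSO and from 69.8 to 109 after UNC1999. Not every blood cell miRNA followed the sum. The dim miR-155-5p had a mean scaled intensity of 12.97 for DMSO against 18.1 for UNC1999, and miR-223-3p, a myeloid miRNA outside the list that was picked after its values were seen, had a log2 fold change of 1.18 (limma adjusted p = 0.00057).

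MiRNAs are short RNAs that guide silencing proteins to messenger RNAs, mainly through the seed near their 5′ end. The 3p arms of the miR-29 family are the guide strands, which repress transcripts of the DNA methyltransferases, of collagens and of the survival protein MCL1, and in MM the family is known mostly as a restraint on growth. The 5p arms are the partner strands cut from the same hairpins, most of which are degraded.

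All 6 members, and hsa-miR-29b-2-5p, the 5p arm of the remaining hairpin, were matched by name to the RefSeq table of human miRNAs on GRCh38.p14. The sequences of the 3p members are shown because their shared seed, bases 2 to 8 in capitals, defines the family.

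hsa-miR-29a-3p: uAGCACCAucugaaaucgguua
hsa-miR-29b-3p: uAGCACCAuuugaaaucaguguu
hsa-miR-29c-3p: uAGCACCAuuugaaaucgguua

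The 5p arms are shown, seeds again in capitals, because they tell the hairpins apart where the 3p arms do not.

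hsa-miR-29a-5p: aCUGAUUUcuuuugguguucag
hsa-miR-29b-1-5p: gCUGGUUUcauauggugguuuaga
hsa-miR-29c-5p: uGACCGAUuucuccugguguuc
hsa-miR-29b-2-5p: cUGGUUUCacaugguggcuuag

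The 3 members with a 3p arm share the seed AGCACCA, and no other mature miRNA in that table has it. The 4 sequences of 5p arms have 4 different seeds. Counted from 1 at the 5′ end, miR-29a-3p differs from miR-29c-3p by C10U alone over 22 bases. MiR-29b-3p differs from miR-29c-3p by A18G, G21U and U22A over the same 22 bases, and it is 23 bases long. How far a probe for one of these near-identical miRNAs also bound the others was not tested.

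The genes lie in pairs. On the minus strand of chromosome 7, miR-29a-3p (chr7:130876748-130876769) is encoded by MIR29A and miR-29b-3p (chr7:130877467-130877489) by MIR29B1, with 648 bases between the hairpins. On the minus strand of chromosome 1, miR-29c-3p (chr1:207801865-207801886) is encoded by MIR29C and miR-29b-3p (chr1:207802450-207802472) by MIR29B2, with 503 bases between the hairpins, and the RefSeq gene MIR29B2CHG spans this pair. As miR-29b-3p has the same sequence at both loci, its signal cannot be divided between them.

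The detection filter, which asked for detection on all 4 arrays of at least 1 group, was passed by 456 human miRNAs and by 3 of the 6 members, miR-29a-3p, miR-29b-3p and miR-29c-3p. A miRNA was called where limma gave an adjusted p no higher than 0.05 and the groups differed 1.2-fold or more. All 3 were called lower after UNC1999, but 0 of them without scaling between arrays and 0 with scaling to the labelling spike-ins (RNAs added in a set amount), where miR-29c-3p changed direction and where 4 and 7 of all 456 tested miRNAs were called lower. With the same rule, 322 of the 456 tested miRNAs were called (70.6%), 164 higher and 158 lower, the lower ones being 34.6% of those tested. A call in itself was therefore common on these arrays.

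MiR-29a-3p, the member from MIR29A, had scaled intensities of 5364, 3847, 3560 and 5746 after DMSO in replicates 1 to 4. After UNC1999 its scaled intensities were 2831, 2100, 2374 and 1932. Every UNC1999 array was below every DMSO array, as for 32.7% of the tested miRNAs, and DMSO replicates 2 and 3 were the lower ones of their group. The mean log2 signal was 12.15 ± 0.34 (SD, n = 4) on the DMSO arrays against 11.16 ± 0.24 (SD, n = 4) on the UNC1999 arrays. The log2 fold change was -0.99 (SE 0.18, limma adjusted p = 0.0011), which left 50.4% of the DMSO level (exact permutation test, two-sided, p = 0.029, the smallest that 4 against 4 arrays can give).

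MiR-29b-3p, which both loci encode, had scaled intensities of 3252, 2108, 1930 and 3334 after DMSO in replicates 1 to 4. After UNC1999 its scaled intensities were 1519, 1053, 1394 and 1163. The groups did not overlap, and replicates 1 and 4 were again the highest after DMSO. The mean log2 signal was 11.33 ± 0.41 (SD, n = 4) on the DMSO arrays against 10.31 ± 0.24 (SD, n = 4) on the UNC1999 arrays. The log2 fold change was -1.02 (SE 0.20, limma adjusted p = 0.0016), which left 49.2% of the DMSO level (exact permutation test, two-sided, p = 0.029).

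MiR-29c-3p, from MIR29C, had scaled intensities of 1799, 1376, 1266 and 1926 after DMSO in replicates 1 to 4. After UNC1999 its scaled intensities were 1178, 807.3, 941 and 811.1. The groups did not overlap, but UNC1999 replicate 1 came close to DMSO replicate 3. The mean log2 signal was 10.61 ± 0.29 (SD, n = 4) on the DMSO arrays against 9.85 ± 0.26 (SD, n = 4) on the UNC1999 arrays. The log2 fold change was -0.76 (SE 0.17, limma adjusted p = 0.0031), which left 58.9% of the DMSO level (exact permutation test, two-sided, p = 0.029).

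**Figure D1:**
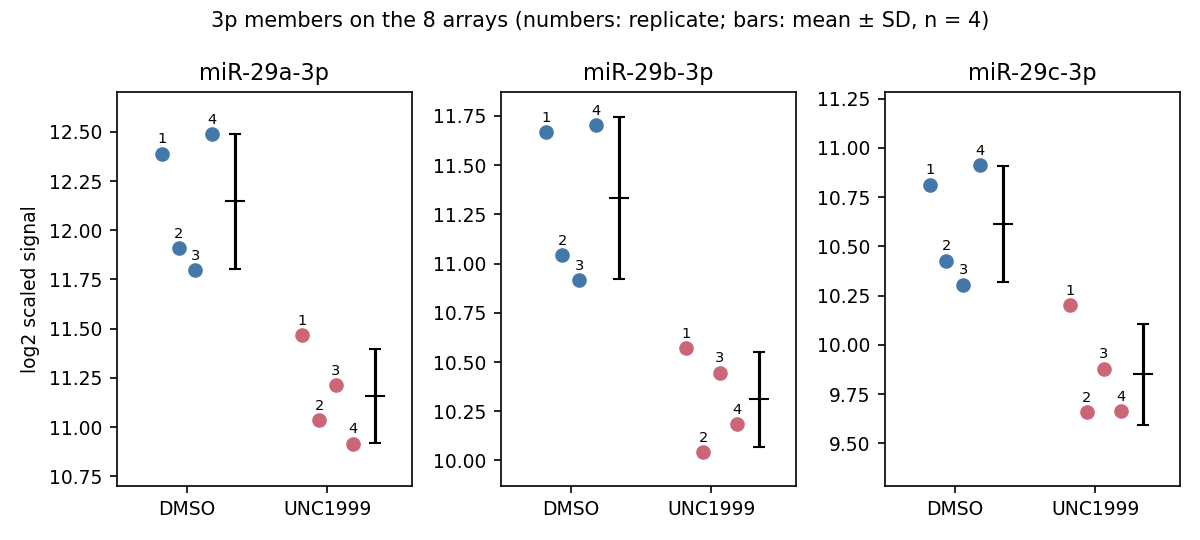
The log2 scaled signal (y axis, with the same span but a separate range for each miRNA) of the 3p members is plotted by group, with a point for each array, its replicate number, and the mean ± SD of 4 arrays beside the points. For all 3 the UNC1999 points lie below the DMSO points, and DMSO replicates 1 and 4 lie above DMSO replicates 2 and 3, but the groups were not called different without scaling or with spike-in scaling, where the change of miR-29c-3p was 0.050.

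Among the 456 tested miRNAs, ordered from the most negative log2 fold change, miR-29b-3p stood at place 16, miR-29a-3p at 22 and miR-29c-3p at 53. The median log2 fold change of all tested miRNAs was 0.01. The 95% confidence intervals were -1.46 to -0.58 for miR-29b-3p, -1.39 to -0.59 for miR-29a-3p and -1.14 to -0.39 for miR-29c-3p, so that neighbours in this order overlapped widely, as the plot of ranked changes shows.

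**Figure D2:**
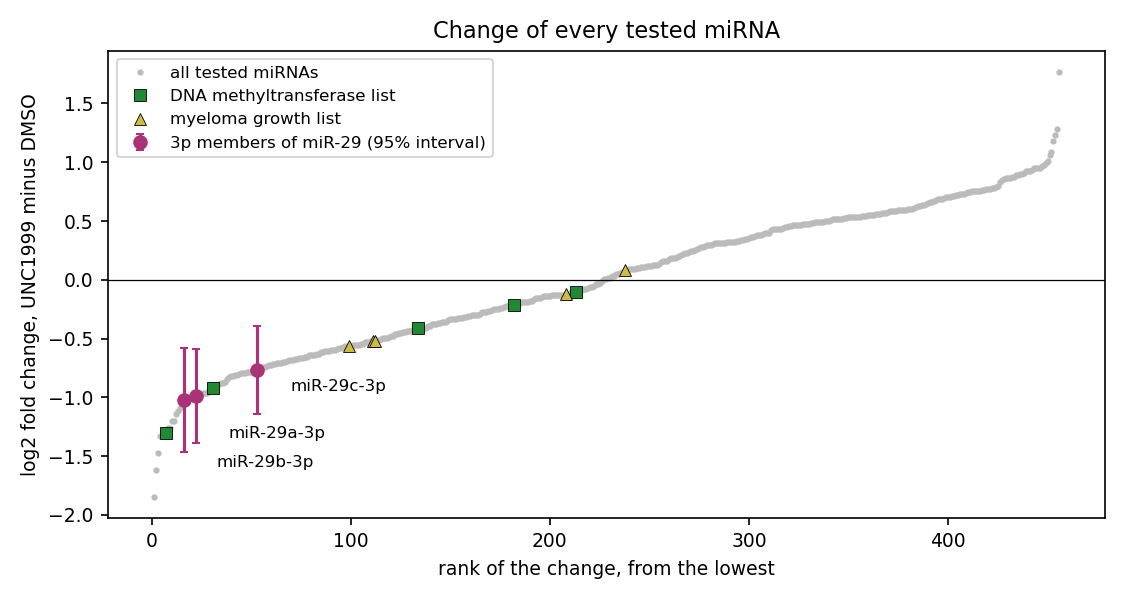
The log2 fold change of each of the 456 tested miRNAs (y axis, UNC1999 minus DMSO) is plotted by its rank from the lowest (x axis), with the 3p members as circles with 95% intervals and the miRNAs of the DNA methyltransferase and myeloma growth lists as squares and triangles. MiR-29b-3p, miR-29a-3p and miR-29c-3p stand at ranks 16, 22 and 53 in this scaling, and the change of miR-29c-3p was 0.050 with spike-in scaling.

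Before scaling, the groups overlapped. The unscaled intensity of miR-29a-3p was 4911, 2591, 2034 and 6199 after DMSO in replicates 1 to 4 and 3748, 2871, 3343 and 1994 after UNC1999. That of miR-29b-3p was 2978, 1420, 1103 and 3597 after DMSO and 2011, 1440, 1963 and 1201 after UNC1999. That of miR-29c-3p was 1648, 927, 723.4 and 2078 after DMSO and 1559, 1104, 1325 and 837.1 after UNC1999. DMSO replicates 1 and 4 had the highest unscaled intensities of all 8 arrays for each of the 3 members, and DMSO replicates 2 and 3 lay among or below the UNC1999 arrays. The group means of miR-29a-3p were 3934 ± 1958 (SD, n = 4) and 2989 ± 754 (SD, n = 4), a difference within the spread (exact permutation test, two-sided, p = 0.43), and p was 0.40 for miR-29b-3p and 0.71 for miR-29c-3p in the same exact test.

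The scaling factor itself had different means in the groups. Unscaled, the 75th percentile that served as this factor was 419 ± 119 (SD, n = 4) for DMSO against 664 ± 88.3 (SD, n = 4) for UNC1999, and the difference missed the threshold (p = 0.057, exact permutation, two-sided). The spike-in dmr_285 had a mean intensity of 4054 ± 487 (SD, n = 4) for DMSO against 3724 ± 345 (SD, n = 4) for UNC1999, and dmr_31a 1927 ± 181 against 1776 ± 88.2 (SD, n = 4), differences within the spread (exact permutation test, two-sided, p = 0.31 and 0.17). The part of the percentile, of detection and of the spike-ins in the result was not tested. Without scaling the median of all tested miRNAs rose by 0.67 and with the spike-ins by 0.78, and 98.3% and 97.7% of the called miRNAs were higher after UNC1999, against 50.9% with the scaling used here. The log2 fold changes of miR-29a-3p, miR-29b-3p and miR-29c-3p were -0.29, -0.32 and -0.067 without scaling (limma adjusted p = 0.47, 0.43 and 0.88) and -0.17, -0.21 and 0.050 with the spike-ins (limma adjusted p = 0.59, 0.54 and 0.88). MiR-29c-3p was the member whose direction turned. Taken relative to the median of the tested miRNAs, the same changes were -0.96, -0.999 and -0.74 without scaling and -0.95, -0.99 and -0.73 with the spike-ins, against -0.999, -1.03 and -0.78 in the scaling used here. These relative values are near each other by construction, as 1 factor an array moves all miRNAs alike apart from the floor. Over all alternatives, limma adjusted p ran from 2.1e-05 to 0.59 for miR-29a-3p, from 2.1e-05 to 0.54 for miR-29b-3p and from 7.5e-05 to 0.88 for miR-29c-3p. A fall in the signal of a member itself was called neither without scaling nor with the spike-ins.

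With normexp background correction the median of all tested miRNAs was -0.29, and the log2 fold changes of -0.74, -0.78 and -0.54 for miR-29a-3p, miR-29b-3p and miR-29c-3p were -0.45, -0.48 and -0.25 relative to it. These are the values nearest to the median among the settings tried, and all 3 members were called lower there. In that setting 19.0% of the calls were higher, and 50.4% of the 456 tested miRNAs were called lower. With the percentile taken over all human miRNAs the median was 0.23, 68.6% of the calls were higher, and the 3 changes relative to the median were -0.999, -1.03 and -0.78. With quantile normalization the median was 0.11 and the 3 changes relative to it were -0.92, -1.07 and -0.88, and in the authors' processed values the median was 0.18 and the changes relative to it were -0.94, -1.10 and -0.96. The 3 members were called lower in each of these settings. Of all 456 tested miRNAs, 19.3% were called lower with the percentile over all human miRNAs. The share was 29.4% with quantile normalization and 25.7% in the authors' processed values. The plot of changes by setting shows how the order and distance of the members varied.

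**Figure D3:**
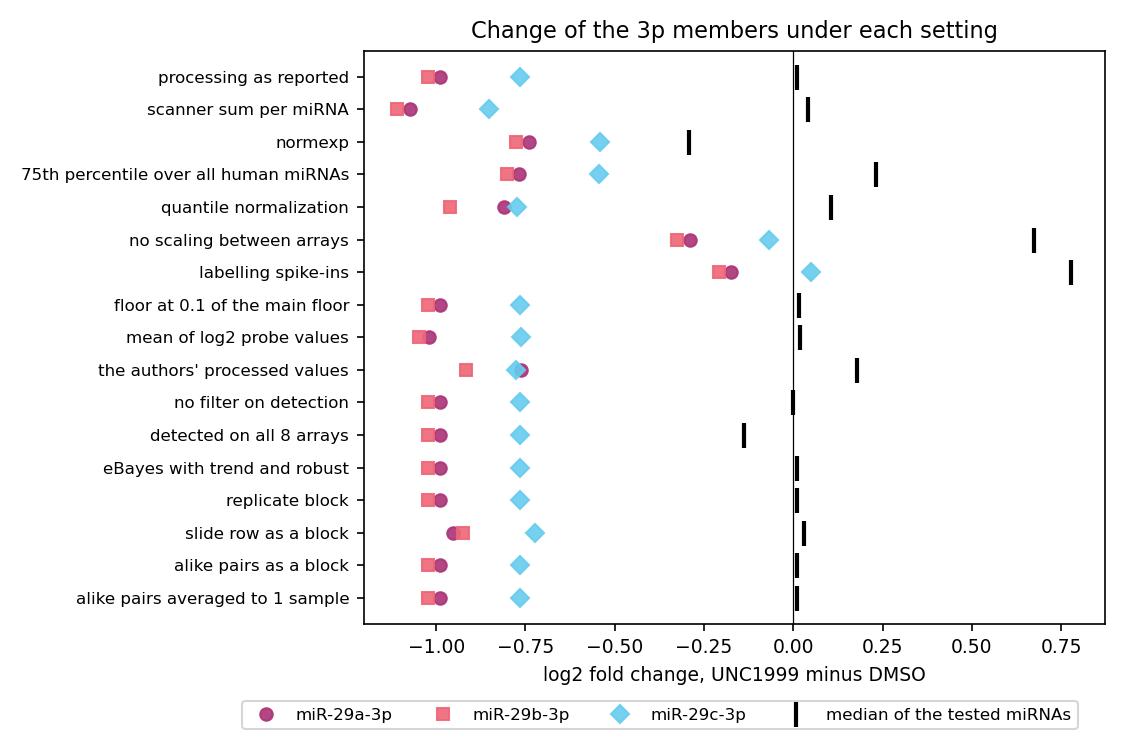
The log2 fold change (x axis, UNC1999 minus DMSO) of the 3p members and the median of the tested miRNAs is plotted for each processing setting (y axis, 1 row a setting). In every row the members lie to the left of the median, while without scaling and with the labelling spike-ins all of them shift to the right and miR-29c-3p reaches 0.050 with the spike-ins.

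The slide had 2 rows of arrays. The first held DMSO replicates 1, 2 and 4 with UNC1999 replicate 4, and the second held DMSO replicate 3 with UNC1999 replicates 1, 2 and 3. With the row as a block the log2 fold changes of miR-29a-3p, miR-29b-3p and miR-29c-3p were -0.95, -0.92 and -0.72 (limma adjusted p = 0.0058, 0.0088 and 0.013). Within the first row they were -1.35, -1.29 and -1.05, and within the second -0.56, -0.56 and -0.39, each from 3 arrays of a group against 1. With this scaling all 6 differences were negative, and those in the first row were the larger.

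Within each group the arrays were alike in pairs, DMSO replicates 1 and 4 against 2 and 3, and UNC1999 replicates 1 and 3 against 2 and 4, which the second principal component (15.0% of the variance) separated. Over the 346 miRNAs detected on all arrays, DMSO replicates 1 and 4 differed by a root mean square of 0.13 on the log2 scale and replicates 2 and 3 by 0.20, whereas the other pairs of DMSO arrays differed by 0.33 to 0.37. Whether alike arrays held separate cultures was not settled by their values. The 3p members followed these pairs: miR-29b-3p averaged 11.69 in DMSO replicates 1 and 4 and 10.98 in replicates 2 and 3, and 10.51 in UNC1999 replicates 1 and 3 and 10.11 in replicates 2 and 4. With the mean of each alike pair counted as 1 sample, 2 against 2, the 3 members were still called (limma adjusted p = 0.025, 0.030 and 0.039 for miR-29a-3p, miR-29b-3p and miR-29c-3p), while the calls over all tested miRNAs fell to 156.

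Each 3p member was measured by 2 probes, and each probe by 10 spots an array. For miR-29a-3p the probes gave log2 fold changes of -1.10 and -0.94, for miR-29b-3p -1.02 and -1.08, and for miR-29c-3p -0.76 and -0.77. With the scaling used here all 6 probes were lower on every UNC1999 array than on every DMSO array, whereas the unscaled intensities of each miRNA overlapped (exact permutation test, two-sided, p = 0.029 for each probe after scaling). The spots of a probe on an array varied little, with a median coefficient of variation from 2.71% to 5.64% across the 6 probes, and no spot of a member was saturated. The scanner software marked 18 of the 480 spots of these probes as outliers, and they were left out. The arrays of a group differed by more than the spots of a probe.

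A difference between 2 miRNAs on the same array does not depend on a single scaling factor for the array. On this measure, miR-29a-3p, which differs from miR-29c-3p by C10U and lies at another locus, fell by 0.22 more than miR-29c-3p on the log2 scale. The groups did not overlap (exact permutation test, two-sided, p = 0.029), but after adjustment over the 2 such contrasts examined the exact test gave p = 0.057. With 4 against 4 arrays this is the smallest adjusted p the contrast could reach unless the other contrast also separated the groups, so that missing the threshold says nothing about its stability. The contrast was 0.015 in the authors' processed values and -0.036 after quantile normalization. MiR-29b-3p changed by -0.15 relative to the mean of miR-29a-3p and miR-29c-3p, the groups overlapped, and the exact permutation test gave p = 0.17, also after adjustment.

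The 5p arms were dim. MiR-29a-5p was detected on no array, and its scaled intensity ran from 3.35 to 19.0 over the 8 arrays. MiR-29b-2-5p, which has probes on the array but is not among the members, was also detected on no array. No fold change is given for either.

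MiR-29b-1-5p, the 5p arm of MIR29B1, was detected in DMSO replicates 1, 2 and 4 and in UNC1999 replicate 1, and so did not pass the filter. Its scaled intensities were 81.0, 46.5, 39.3 and 88.9 after DMSO in replicates 1 to 4 and 20.6, 15.99, 16.9 and 16.1 after UNC1999. Unscaled, its intensities were 74.2, 31.3, 22.4 and 95.9 after DMSO and 27.3, 21.9, 23.8 and 16.7 after UNC1999, so that the groups overlapped. With the scaling used here they did not overlap. The same held, lower after UNC1999, for 32.7% of the 456 tested miRNAs, of which it is not one. Replicates 1 and 4 were the highest of the DMSO arrays, as for the 3p members. The mean log2 signal was 5.91 ± 0.58 (SD, n = 4) on the DMSO arrays against 4.11 ± 0.17 (SD, n = 4) on the UNC1999 arrays, a log2 difference of -1.80 (exact permutation test, two-sided, p = 0.029). With no filter on detection, where all 2549 human miRNAs were tested and 4.86% were called lower, it was called (limma adjusted p = 0.022), while in the same setting miR-29b-3p and miR-29c-3p lost their calls (limma adjusted p = 0.057 and 0.074). As 3 of the 4 UNC1999 arrays and 1 of the 4 DMSO arrays did not detect it, the difference is set largely against signals not well above background and is no measure of the size of a fall. It varied between settings, being -0.64 with normexp and -3.98 in the authors' processed values (exact permutation test, p = 0.029 and 0.057), and -1.10 without scaling and -0.98 with spike-ins (p = 0.086 for both in the exact test).

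MiR-29c-5p, the 5p arm of MIR29C, was detected in DMSO replicate 4 alone. Its scaled intensities were 15.6, 19.6, 19.7 and 14.5 after DMSO in replicates 1 to 4 and 10.8, 10.8, 8.47 and 11.3 after UNC1999. With this scaling the DMSO arrays were all higher, but the unscaled intensities, 14.3, 13.2, 11.3 and 15.7 after DMSO and 14.2, 14.8, 11.9 and 11.6 after UNC1999, overlapped. The array that detected it had the lowest scaled intensity of the DMSO group, and 7 of the 8 arrays gave no signal well above background. No fold change is given for this arm.

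**Figure D4:**
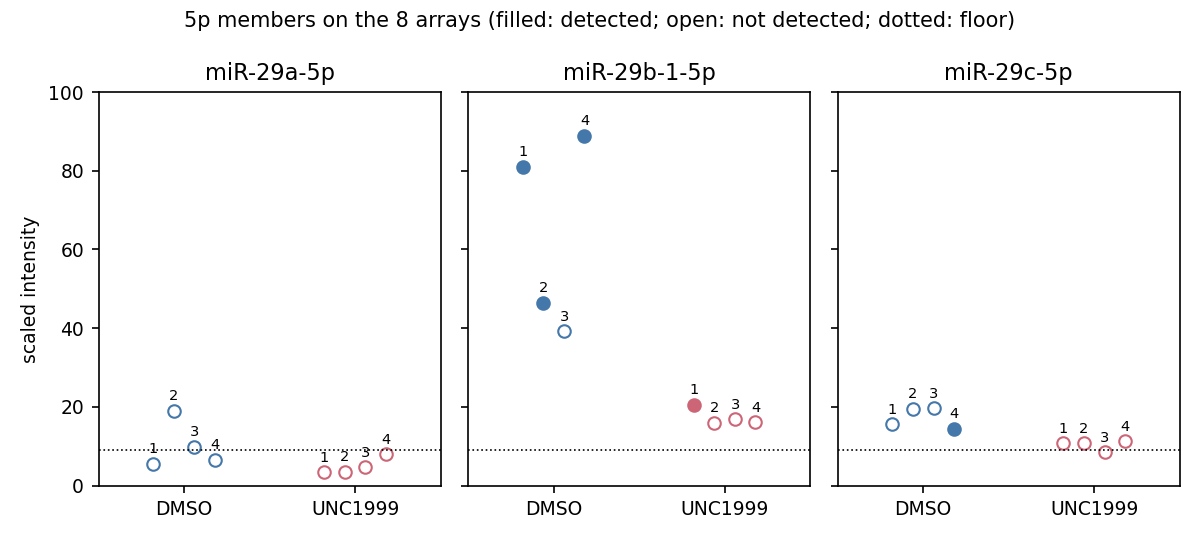
The scaled intensity (y axis) of the 5p members is plotted by group, with a point for each array and its replicate number, filled where the scanner software detected the miRNA and open where it did not, and a dotted line at the floor of 8.98. MiR-29b-1-5p has 4 filled points, 3 of them after DMSO between 46.5 and 88.9, while miR-29a-5p has none and miR-29c-5p has 1.

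The profiles most like that of the 3p members were sought among the other 343 miRNAs detected on all 8 arrays. Likeness was the root mean square difference over the 8 arrays between log2 signals centred on their own means and the mean of the 3p members. The 5 closest were miR-148b-3p (0.073), miR-598-3p (0.088), let-7c-5p (0.099), let-7g-5p (0.10) and miR-9-5p (0.11). The median over the 343 was 0.50, and the members themselves lay at 0.047 (miR-29a-3p), 0.077 (miR-29b-3p) and 0.091 (miR-29c-3p) from their mean. The closest profile, that of miR-148b-3p, was nearer to this mean than miR-29b-3p and miR-29c-3p, though they are part of it. The log2 fold changes of these 5 miRNAs ran from -0.92 for miR-148b-3p to -0.80 for let-7g-5p. As likeness was taken over the arrays of both groups, this choice bound their changes to lie near those of the members. With the spike-ins the log2 fold changes of miR-598-3p and let-7g-5p turned to 0.0003 and 0.016.

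Other miRNAs known to target DNA methyltransferases were taken as a list of 9, of which 5 passed the filter, while miR-152-3p, miR-143-3p, miR-126-3p and miR-377-3p did not. Of the 5, 3 were called lower and 0 higher, with a median log2 fold change of -0.41, against 158 lower and 164 higher and a median of 0.01 over the 456 tested miRNAs. MiR-148a-3p, which targets DNMT1 and DNMT3B, had a mean log2 signal of 12.80 ± 0.34 (SD, n = 4) on the DMSO arrays against 11.49 ± 0.41 (SD, n = 4) on the UNC1999 arrays, a log2 fold change of -1.30 (limma adjusted p = 0.00076). Its relative miR-148b-3p, of the same seed family, had a log2 fold change of -0.92 (limma adjusted p = 0.00057). MiR-101-3p, which is also known to target EZH2 itself, had a log2 fold change of -0.41 (limma adjusted p = 0.021), and its DMSO and UNC1999 arrays overlapped. This call was lost in 10 of 24 alternatives and the direction turned in another 2, and among these the call was lost without DMSO replicate 1 (-0.35), DMSO replicate 4 (-0.36) or UNC1999 replicate 2 (-0.32). MiR-342-3p and miR-185-5p were not called, with log2 fold changes of -0.11 and -0.21. Without scaling or with the spike-ins, 0 of the list were called lower, beside 4 and 7 of all tested miRNAs, and miR-101-3p, miR-342-3p and miR-185-5p were positive. With the spike-ins miR-342-3p (0.71) and miR-185-5p (0.60) were called higher, while with normexp miR-185-5p (-0.35) was called lower.

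MiRNAs known to restrain MM cells, other than the family, made a list of 11, which does not hold every miRNA with such a role, and of which 5 passed the filter. Of these, 3 were called lower and 0 higher, with a median log2 fold change of -0.52, where 34.6% of all 456 tested miRNAs were called lower with a median of 0.01. MiR-15a-5p and miR-16-5p, a clustered pair that targets BCL2, had log2 fold changes of -0.52 and -0.56 (limma adjusted p = 0.0031 and 0.0027). MiR-16-5p was not called with quantile normalization (-0.097) or in the authors' processed values (-0.15), and neither of the pair was called with the percentile over all human miRNAs (-0.30 and -0.34) or with alike pairs averaged. MiR-34a-5p, which p53 induces, had a log2 fold change of -0.52 (limma adjusted p = 0.042), and its groups overlapped. Its call was lost in 10 of 24 alternatives and the direction turned in another 2, and among these the call was lost without DMSO replicate 1 (-0.41), DMSO replicate 4 (-0.43), UNC1999 replicate 2 (-0.41) or UNC1999 replicate 4 (-0.42). MiR-22-3p and miR-192-5p were not called, with log2 fold changes of 0.080 and -0.12, and miR-192-5p had passed the filter through the UNC1999 arrays alone. MiR-22-3p was called higher without scaling (0.78) and with the spike-ins (0.89), as miR-192-5p was with the spike-ins (0.68), whereas with normexp both were called lower (-0.30 and -0.33). The count of this list varied with the setting, as did that of all tested miRNAs. It was 0 with the percentile over all human miRNAs, without scaling, with the spike-ins and with alike pairs averaged, where 88, 4, 7 and 86 of all 456 were called lower, and 5 with normexp, where 230 were. MiR-15a-5p, miR-16-5p and miR-34a-5p were positive without scaling and with the spike-ins.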

How the data were processed

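RNA of INA-6 cells was hybridized to 8 single-colour miRNA arrays. The authors deposited scanner output from Agilent Feature Extraction 10.7.3.1, per the file headers, in which the intensity of each spot is net of background and not brought to a common scale across arrays. A second deposited table held log2 values, quantile normalized as the values show, and served as an alternative. The members and lists were chosen with earlier results of these data known.

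Spots of a probe were averaged without outlier spots, probes of a miRNA were summed, arrays were scaled as described, a floor of 8.98 was set from the weakest detected miRNA of each array after scaling (median of the 8 arrays), and log2 was taken, which understates changes of dim miRNAs. LmFit and eBayes of limma 3.58.1 (R 4.3.3) were run on 456 miRNAs without a block and were tested on simulated data. Adjustment was by Benjamini-Hochberg over all of them. Single values were tested by exact permutation of the arrays in Python 3.11.15.

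The miRNAs named were the members, miR-29b-2-5p, those sharing the 3p seed, the 2 lists, the markers and the 5 profiles most like the 3p members. MiR-223-3p, which is in none of these sets, was named besides and was picked after its values were seen. Alternatives covered signal, background, scaling, floor, filter, probe summary, variance model, blocks and left-out arrays. Normexp used the median spot intensity, the column in the files. Positions are those of the RefSeq miRNA table, as the scanner files, whose grid names an older genome build, gave none that were used. The number of arrays limits the precision.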

Additional observations from a re-analysis of the deposited data

How the results depend on the processing

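The fall of miR-29a-3p kept its call under 22 of 24 alternatives, that of miR-29b-3p and miR-29c-3p under 21 each. The log2 fold change of miR-29a-3p, miR-29b-3p and miR-29c-3p was -0.29, -0.32 and -0.067 without scaling and -0.17, -0.21 and 0.050 with the spike-ins, and the cause was not tested. With no filter on detection, more miRNAs enter both the variance model of limma and the adjustment, and their parts were not tested apart. In that setting miR-29b-3p (-1.02) and miR-29c-3p (-0.76) lost the call (limma adjusted p = 0.057 and 0.074) and miR-29a-3p kept it. There 3 members were called in all, beside 195 of 2549 miRNAs (4.86% lower). These were miR-29a-3p with miR-29b-1-5p and miR-29c-5p, the last detected on 1 array and called against background. Leaving out each array gave -1.10 to -0.87 for miR-29a-3p, -1.16 to -0.90 for miR-29b-3p and -0.88 to -0.67 for miR-29c-3p, all called. The members called numbered 0 without scaling and 0 with the spike-ins.

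The 322 calls became 195 with no filter, 156 with alike pairs averaged, where fewer samples enter, and 175 at a fold change of at least 1.5, and 292 to 326 without each array. Of the DNA methyltransferase list 0 were called lower without scaling or with the spike-ins, beside 4 and 7 of all 456 tested miRNAs. Without each array 2 to 3 of it were called lower, beside 143 to 158 of all tested. Of the myeloma growth list 5 were called lower with normexp, beside 230 of all tested. The count was 1 with quantile normalization and with the authors' processed values, beside 134 and 117. It was 0 with the percentile over all human miRNAs and with alike pairs averaged, beside 88 and 86. Without scaling and with the spike-ins it was 0 as well. It was also 0 at a fold change of at least 1.5, where the 175 calls cover both directions. MiR-15a-5p, miR-16-5p and miR-34a-5p had changed 1.435-, 1.478- and 1.431-fold.

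The log2 difference of miR-29b-1-5p (-1.80) passed p = 0.05 no longer with the scanner sum (-1.67), without scaling (-1.10), with the spike-ins (-0.98) and in the authors' processed values (-3.98). With the slide row as a block (-1.63), the replicate block, alike pairs as a block or alike pairs averaged (-1.80 each) the exact test is too small to pass (p = 0.0625, 0.125, 0.056 and 0.33, the smallest possible), which says nothing about stability. Without each array it was -2.004 to -1.61. It could not be fitted among miRNAs detected on all arrays, and the variance model has no part in it. The other 5p arms have no fold change to vary. The contrast of miR-29a-3p with miR-29c-3p was 0.015 in the authors' processed values and -0.25 to -0.21 without each array. After adjustment over both contrasts it could pass the threshold only if the other contrast also separated the groups, and under the blocks the exact test is too small to pass, so that a miss there says nothing about stability. With quantile normalization (-0.036) and in the authors' processed values the exact test gave p = 0.60 and 0.80 after adjustment. The contrast of miR-29b-3p kept its sign throughout.

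With the spike-ins the log2 fold change was 0.71 for miR-342-3p, 0.60 for miR-185-5p, 0.40 for miR-101-3p, 0.29 for miR-15a-5p, 0.25 for miR-16-5p, 0.30 for miR-34a-5p, 0.68 for miR-192-5p, 0.0003 for miR-598-3p and 0.0158 for let-7g-5p. Without scaling it was 0.59 for miR-342-3p, 0.49 for miR-185-5p, 0.28 for miR-101-3p, 0.18 for miR-15a-5p, 0.13 for miR-16-5p, 0.18 for miR-34a-5p and 0.53 for miR-192-5p. With the percentile over all human miRNAs it was 0.12 for miR-342-3p, 0.0105 for miR-185-5p and 0.10 for miR-192-5p. In the authors' processed values it was 0.0594 for miR-185-5p and 1.598 for miR-192-5p, and with normexp -0.30 for miR-22-3p. MiR-192-5p, near background, was 0.47 with the scanner sum, 0.14 with quantile normalization, 0.0215 with the mean of log2 probe values, 0.0031 with the slide row as a block, and -0.21 to 0.0106 without each array, the highest without UNC1999 replicate 3. The cause of these turns was not tested. Signal over background limits the 5p arms and miR-192-5p, while the 3p members were well above it on all 8 arrays.

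The values did not settle whether replicate numbers pair the samples. Deviations from the group means correlated at 0.18, 0.27, -0.42 and -0.39 for replicates 1 to 4 over the tested miRNAs. Not every sample correlated best with the sample of its own number. With the replicate block 308 miRNAs and the same 3 members were called, with log2 fold changes of -0.99, -1.02 and -0.76 (limma adjusted p = 0.0015, 0.0014 and 0.0029).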
